A study of Mus musculus with 12 samples.

Results

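The 4 myogenic regulatory factor genes of the mouse, Myod1, Myog, Myf5 and Myf6, were examined for 3 methylation states of lysine 4 of histone H3 in differentiating C2C12 cells, an established mouse myoblast line. Members were all listed ChIP-seq peaks that overlap 3 windows of the mm9 genome: Myod1 with its upstream enhancers on chromosome 7 (53600000 to 53645000), Myog on chromosome 1 (136170000 to 136210000), and the adjacent genes Myf5 and Myf6 with their upstream region on chromosome 10 (106900000 to 107070000). These windows hold 46 of the 134900 peaks of the 6 lists, with 11 at Myod1, 13 at Myog and 22 at Myf5 and Myf6. Cells had been switched to medium with 2% horse serum for 48 h, until day 2, together with the LSD1 inhibitor S2101 at 10 µM or with vehicle, and they carried no genetic change that the labels name. There was 1 library for each of H3K4me1, H3K4me2 and H3K4me3 in each treatment, so no difference below has a replicate check and no test was made. H3K4me1 and H3K4me2 belong to experiment 1 of the series and H3K4me3 to experiment 2, so between H3K4me3 and the other marks, mark and experiment cannot be told apart.

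The myogenic regulatory factors are basic helix-loop-helix transcription factors that bind E-box sequences as dimers with E proteins. Myf5, Myod1 and Myf6 (also called MRF4) act in commitment to the muscle lineage, and Myog (myogenin) drives terminal differentiation, as does Myf6 later on. LSD1 is a demethylase whose substrates are the mono- and dimethylated forms of H3K4. Trimethylation is found at active promoters, monomethylation is typical of enhancers, and dimethylation occurs at promoters and enhancers alike. Myod1 is known to be controlled by a core enhancer and a distal regulatory region upstream of the gene, and Myf5 and Myf6 by many enhancers spread over a long shared upstream region. In RefSeq (GRCm38.p6) the protein-coding neighbours are Otog and Kcnc1 for Myod1, Adora1 and Ppfia4 for Myog, and Lin7a and Ptprq for the Myf5 and Myf6 pair. No gene annotation of mm9 was used here, so peaks are given by position and none is assigned to a gene start or to a known enhancer.

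The promoter sequences of Myog and Myf5 are shown because H3K4me3 was listed in the windows of both genes, while H3K4me2 was listed in that of Myf5 and Myf6 but not in that of Myog. They come from RefSeq (GRCm38.p6, 250 bases before to 50 after the gene start, 5′ to 3′ along the gene), where 2 of the 4 genes matched. The Myog sequence lies at chr1:134289754-134290053 on the plus strand and the Myf5 sequence at chr10:107486085-107486384 on the minus strand, positions that cannot be set beside the mm9 positions of the peaks. Capitals mark matches on either strand to the E-box CANNTG, to CTANNNNTA (a relaxed form of the site of MEF2, a cofactor of these proteins), to TCAGGTT (the MEF3 site of muscle promoters) and to TATAAA, the letters of the TATA box.
Myog: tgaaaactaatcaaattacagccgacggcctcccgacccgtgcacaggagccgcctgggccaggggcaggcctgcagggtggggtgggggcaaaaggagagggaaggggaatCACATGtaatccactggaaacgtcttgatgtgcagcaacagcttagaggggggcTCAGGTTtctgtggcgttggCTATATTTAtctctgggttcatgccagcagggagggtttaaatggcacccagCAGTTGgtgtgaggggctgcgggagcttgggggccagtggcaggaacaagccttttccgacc
Myf5: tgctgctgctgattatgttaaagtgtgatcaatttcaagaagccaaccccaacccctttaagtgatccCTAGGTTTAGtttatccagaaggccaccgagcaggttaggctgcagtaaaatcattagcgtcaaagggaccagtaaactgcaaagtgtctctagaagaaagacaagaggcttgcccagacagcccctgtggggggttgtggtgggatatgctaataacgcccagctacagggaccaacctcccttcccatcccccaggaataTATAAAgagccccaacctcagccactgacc
The Myog sequence held 2 E-boxes, CACATG beginning 138 bases before the start and CAGTTG beginning 12 bases before it. It also held CTATATTTA beginning 64 bases before the start and TCAGGTT beginning 84 bases before it. In the Myf5 sequence CTAGGTTTA and, overlapping it on the other strand, TAGGTTTAG matched the relaxed MEF2 form, beginning 182 and 181 bases before the start. TATAAA began 20 bases after the annotated start, not before it. Among all 32851 promoters of this length in the table, 72.3% held CANNTG, 21.0% CTANNNNTA, 4.07% TCAGGTT and 13.6% TATAAA. Myog had 9 CpG dinucleotides and Myf5 had 3, against a median of 7 over all promoters. A match is a description of the letters and not a measured binding site.

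H3K4me3 was listed in all 3 windows in both treatments, and the covered length was somewhat longer with S2101. Of the Myod1 window its peaks covered 3111 bp (vehicle) and 3761 bp (S2101), a ratio of 1.21 (S2101 over vehicle). At Myog they covered 1668 bp and 2203 bp, a ratio of 1.32, and at Myf5 and Myf6 4793 bp and 5173 bp, a ratio of 1.08. The same ratio over the whole lists was 1.10. H3K4me1 and H3K4me2 covered less with S2101 wherever they were listed with vehicle. H3K4me1 covered 3051 bp and 981 bp at Myod1 (ratio 0.322), 2834 bp and 1496 bp at Myog (0.528), and 4664 bp and 369 bp at Myf5 and Myf6 (0.0791), against 0.347 over the whole lists. The Myog ratio was 0.273, below that of the lists, when the window was widened by 50 kb. The ratio was 0.436 at Myod1 and 0.221 at Myf5 and Myf6 with lists of equal length, for which no whole-list ratio was computed. With lists of equal length no vehicle base was left at Myog while the 1496 bp of S2101 were, so the order was reversed there. H3K4me2 at Myf5 and Myf6 covered 9380 bp (vehicle) and 1852 bp (S2101), a ratio of 0.197 against 0.467 over the whole lists, and no base of the Myod1 or Myog windows in either treatment. The number of reads behind each list is unknown, and list length and peak width move with it, so the part of library depth in these differences was not tested.

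**Figure D1:**
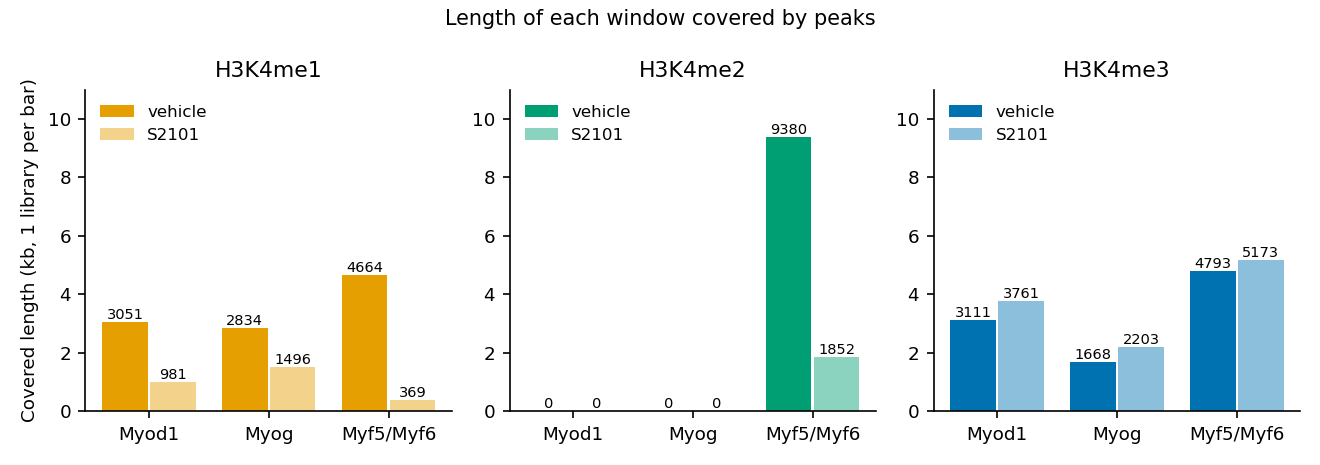
Covered length in kb (y axis) of the Myod1, Myog and Myf5/Myf6 windows (x axis) by peaks of each mark, dark bars for vehicle and pale bars for S2101, 1 library per bar, with the length in bp above each bar. H3K4me1 and H3K4me2 bars are lower with S2101 and H3K4me3 bars slightly higher, and H3K4me2 is at 0 for Myod1 and Myog.

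At Myod1, which encodes the factor able to turn fibroblasts into muscle cells, a wide H3K4me3 domain stood without any listed H3K4me2. The vehicle list had its main H3K4me3 peak on chromosome 7 at 53631725 to 53634394 (2670 bp, score 2730.27) and a small peak beside it at 53631046 to 53631486 (441 bp, score 101.27). The score is the authors' value for each peak and ranks peaks within a list only. With S2101 the main peak ran from 53631668 to 53634671 (3004 bp, score 3100) and the small one from 53630910 to 53631666 (757 bp, score 183.89), so that they nearly touched. Every base of H3K4me3 listed with vehicle was listed with S2101 too, and 650 bp were added, of which 277 bp lay at the high-coordinate end of the main peak. The main peak was 1.13 times as wide with S2101 and the small one 1.72 times, against a median of 1.06 over the 12212 H3K4me3 pairs with a single counterpart. A ratio as large was seen in 28.0% of those pairs for the main peak and in 1.29% for the small peak, which stood just above the lowest score listed.

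H3K4me3 peaks of this size without H3K4me2 were few in the whole lists. Of the 5 vehicle H3K4me3 peaks in the 3 windows, 3 overlapped no H3K4me2 peak of either treatment (both at Myod1 and the one at Myog), against 2.97% of the vehicle list, and the 2 at Myod1 are neighbours in one domain. The count was also 3 of 5 in the S2101 list, against 3.91% there. With H3K4me2 of the same treatment only, the counts were again 3 of 5, against 3.39% of the vehicle and 11.8% of the S2101 list. The same 3 peaks overlapped no H3K4me1 either, as did 2.83% of vehicle and 3.67% of S2101 H3K4me3 peaks. Of the 8121 vehicle H3K4me3 peaks that scored at least as high as the main Myod1 peak, 6 lacked H3K4me2 in both treatments (0.0739%, the Myod1 peak included), and 3 of these lay on chromosome X. Of the 1971 vehicle peaks at least as wide, 1 lacked it, the Myod1 peak itself. Among the 2293 genome tiles of the same length with at least as much vehicle H3K4me3, 1 held no vehicle H3K4me2 (0.0436%). That tile is the one with the Myod1 H3K4me3 peaks themselves. The median vehicle H3K4me2 over the 2293 tiles was 5151 bp. In the S2101 lists such absence was more frequent. Of the 8559 H3K4me3 peaks with a score at least that of the main Myod1 peak there, 213 (2.49%) lacked S2101 H3K4me2 and 7 (0.0818%) lacked it in both treatments, and of the 1562 at least as wide 5 lacked it in both. Of the 1779 tiles with at least as much S2101 H3K4me3, 15 (0.843%) held no S2101 H3K4me2. These S2101 counts include the main Myod1 peak or its own tile. The nearest vehicle H3K4me2 peak on the higher side was at 53651473 to 53652264 (score 201.85), 17.1 kb from the main H3K4me3 peak and outside the window, and on the lower side the nearest was 341 kb away. In the S2101 list the nearest were 260 kb and 342 kb away. The names of the listed peaks number them without a gap in every list.

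**Figure D2:**
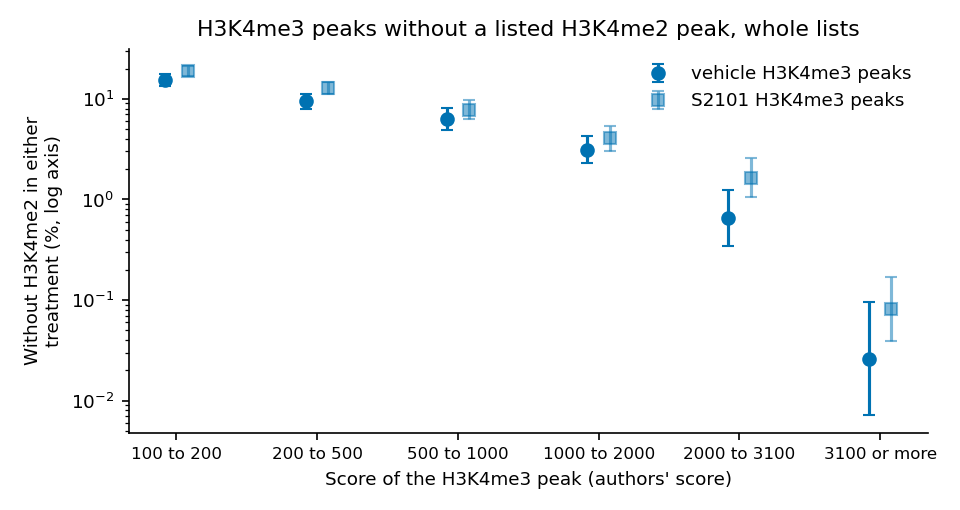
Percentage of H3K4me3 peaks of the whole lists that overlap no H3K4me2 peak of either treatment (y axis, log scale) by the authors' score of the H3K4me3 peak (x axis, classes), circles for vehicle and squares for S2101, with 95% Wilson intervals for counting error. The share is 15.4% for vehicle scores from 100 to 200 and 0.659% from 2000 to 3100, the class of the main Myod1 peak.

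All H3K4me1 peaks of the Myod1 window lay together on the low-coordinate side, 22.5 kb or more from the main H3K4me3 peak. The vehicle list had 4, from 53601894 to 53608639. The strongest, at 53607143 to 53608639 (1497 bp, score 690.87), had a score that 4.50% of the vehicle list reached, and ended 23.1 kb before the main H3K4me3 peak. With S2101, a peak of 260 bp at 53607655 to 53607914 (score 125.86) stood inside it and covered 17.4% of its length. Of the 1818 vehicle peaks that score as high or higher, 10.3% were covered to that extent or less. The width ratio of this pair, 0.174, was matched or undercut by 0.719% of the 10293 H3K4me1 pairs with a single counterpart, whose median was 0.606. The peak at 53604376 to 53604731 (356 bp, score 139.38) had an S2101 counterpart of 374 bp at 53604193 to 53604566 (score 173.81), shifted to lower coordinates by 183 bp at its start, with 191 bp in common. The vehicle peaks at 53601894 to 53602337 (score 147.6) and 53606027 to 53606780 (score 207.0) had none. The remaining S2101 peak, at 53608908 to 53609254 (347 bp, score 127.29), began beyond the end of the strongest vehicle peak and had no vehicle counterpart. In bases, 451 bp were covered in both treatments, 2600 bp with vehicle only and 530 bp with S2101 only. One more vehicle H3K4me1 peak lay 2.08 kb below the window, at 53597419 to 53597914 (score 175.82), and was not counted.

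**Figure D3:**
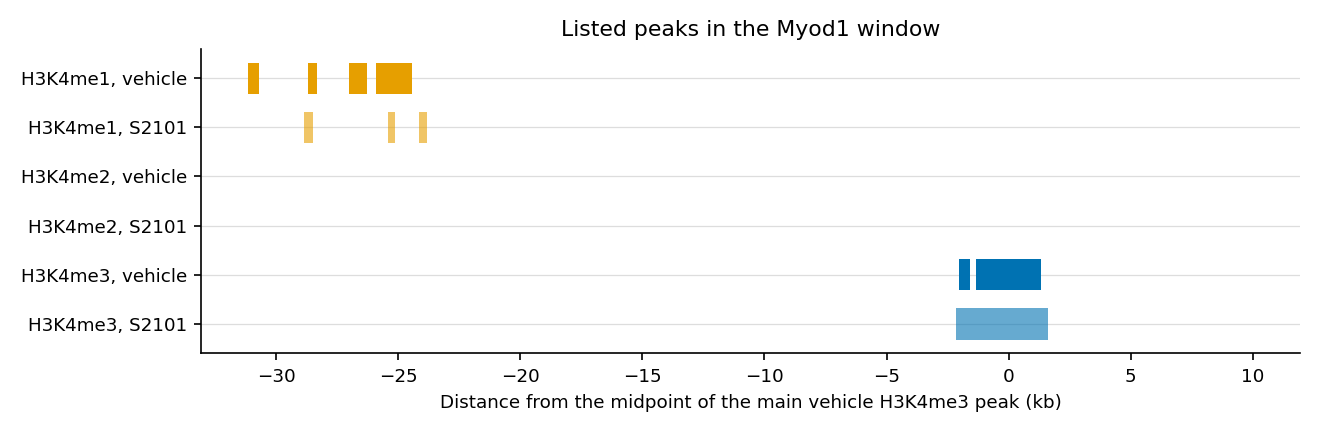
Peaks listed in the Myod1 window, drawn to scale as bars in 6 rows, 1 per mark and treatment, against the distance in kb from the midpoint of the main vehicle H3K4me3 peak (x axis). H3K4me1 peaks sit in one group at the low-coordinate side, narrower with S2101, H3K4me3 sits around 0, and both H3K4me2 rows are empty.

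At Myog, the gene that is switched on as myoblasts leave the cell cycle and differentiate, a single H3K4me3 peak was listed and it was wider with S2101 at one end. It ran on chromosome 1 from 136186517 to 136188184 with vehicle (1668 bp, score 773.66) and from 136186515 to 136188717 with S2101 (2203 bp, score 1401.82). The low-coordinate edge differed by 2 bp and the high-coordinate edge by 533 bp. Over the 12212 H3K4me3 pairs each edge was moved outward by 43 bp at the median, and 1.36% had as large an extension at the high-coordinate edge. The width ratio of 1.32 was reached by 7.52% of pairs. In rank, 78.0% of vehicle and 71.6% of S2101 H3K4me3 peaks scored at least as high as the Myog peak of their list, and 50.1% and 30.1% were at least as wide. Over the 3 windows, 4 of the 5 H3K4me3 peaks were wider with S2101, against 74.7% of pairs in the whole lists, so this count is near the background.

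No H3K4me2 peak was listed in the Myog window. Of the 10598 vehicle H3K4me3 peaks that scored at least as high as the Myog peak, 0.604% lacked H3K4me2 in both treatments, and of the 10253 such S2101 peaks 0.458% did. Tiles of the window's length with at least as much vehicle H3K4me3 numbered 6566, and 23 of them (0.350%) held no vehicle H3K4me2. With S2101, 102 of 4973 such tiles (2.05%) held no S2101 H3K4me2, and 4.05% of the 10253 peaks lacked H3K4me2 of their own treatment. All these counts include the Myog peak or its own tile. The nearest vehicle H3K4me2 peaks lay 54.7 kb below and 38.0 kb above the H3K4me3 peak. The one above, at 136226228 to 136229703 (score 629.46), was outside the window and overlapped further H3K4me3 peaks, the nearest of them at 136227647 to 136228327 with vehicle.

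H3K4me1 at Myog consisted of short, low-scoring peaks on both sides of the H3K4me3 peak, and 2 of 7 vehicle peaks (28.6%) had an S2101 counterpart, near the 33.0% of the whole list. The vehicle list had 7, with widths from 282 to 593 bp and scores from 101.44 to 176.57, of which 2 lay below and 5 above the H3K4me3 peak. The S2101 list had 4, with widths from 258 to 544 bp and scores from 105.87 to 140.74, of which 3 lay below and 1 above. The highest-scoring vehicle peak, at 136199613 to 136200064 (score 176.57), had no S2101 counterpart, nor had the 3 others of the group between 136195694 and 136200064. The widest, at 136204283 to 136204875 (593 bp, score 155.4), shared 221 bp with an S2101 peak at 136204225 to 136204503. On the lower side, the vehicle peak at 136178748 to 136179204 and the S2101 peak at 136179195 to 136179738 (the widest S2101 peak there) met over 10 bp only. The S2101 peaks at 136180350 to 136180764 (score 140.74, the highest S2101 score in the window) and at 136185109 to 136185366 (score 105.87) had no vehicle counterpart, and the latter lay 1.15 kb from the H3K4me3 peak. The nearest vehicle H3K4me1 peak lay 4.21 kb away. Altogether 231 bp were covered in both treatments, 2603 bp with vehicle only and 1265 bp with S2101 only. Thus 15.4% of the S2101 bases were also vehicle bases, compared with 69.7% over the whole lists, 46.0% at Myod1 and 100% at Myf5 and Myf6, where 1 S2101 peak was listed.

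**Figure D4:**
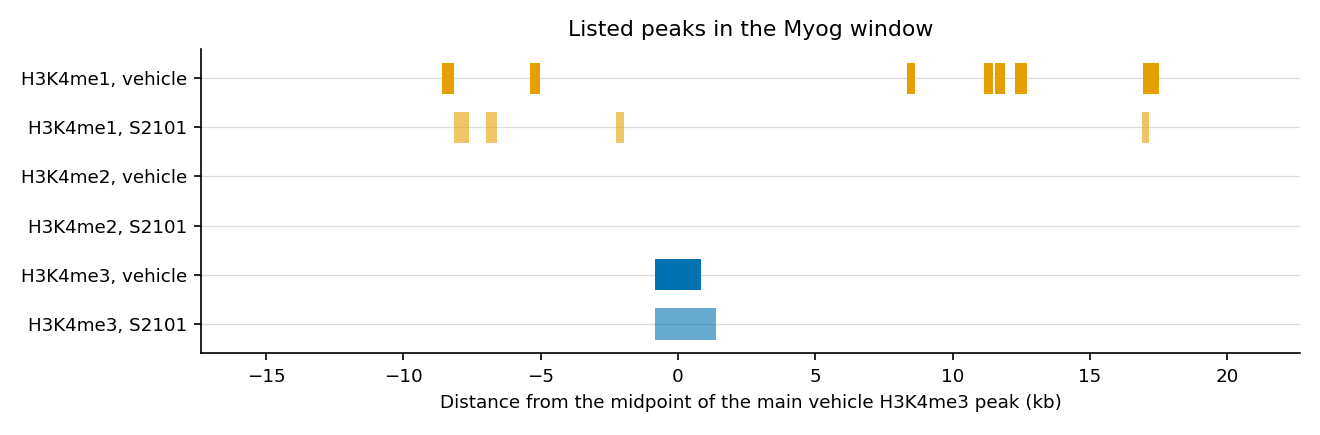
Peaks listed in the Myog window, drawn to scale as bars in 6 rows, 1 per mark and treatment, against the distance in kb from the midpoint of the vehicle H3K4me3 peak (x axis). The S2101 H3K4me3 peak extends 533 bp further at its right end, the H3K4me2 rows are empty, and the 4 vehicle H3K4me1 peaks that begin 7.51 to 11.4 kb beyond its right edge face no S2101 peak.

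At Myf5 and Myf6, the pair of genes that share a long upstream region, all 3 marks were listed, and with vehicle H3K4me2 covered the greatest length. Along chromosome 10 there were 2 H3K4me3 peaks. The first ran from 106920116 to 106924177 with vehicle (4062 bp, score 2245.44) and from 106919984 to 106924473 with S2101 (4490 bp, score 3100), and it was among the widest 2.58% and 2.19% of the lists. The second ran from 106929840 to 106930570 with vehicle (731 bp, score 131.93) and from 106929947 to 106930629 with S2101 (683 bp, score 240.03). The first peak was 1.11 times as wide with S2101 and the second 0.934 times. The second was the 1 narrower of the 5, with its low-coordinate edge 107 bp further in and its high-coordinate edge 59 bp further out. No other H3K4me3 peak was listed within 1620 kb below or 528 kb above the window in either treatment.

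Vehicle H3K4me2 covered both H3K4me3 peaks and 2 places without H3K4me3, and S2101 H3K4me2 was present as short peaks inside 3 of the 5 vehicle peaks. At the first H3K4me3 peak the vehicle H3K4me2 peaks ran from 106920354 to 106922497 (2144 bp, score 411.83) and from 106922670 to 106924040 (1371 bp, score 165.52). S2101 peaks of 399 bp (106920773 to 106921171, score 129.19) and 286 bp (106921584 to 106921869, score 116.42) stood inside the former, and none stood inside the latter. At the second H3K4me3 peak the vehicle H3K4me2 peak, from 106929198 to 106930716 (1519 bp, score 449.84), held an S2101 peak of 445 bp from 106930155 to 106930599. That S2101 peak had the highest score (198.85) and the greatest width of the 5. The vehicle peak between both H3K4me3 peaks, from 106924608 to 106926755 (2148 bp, score 377.06), had no S2101 counterpart. Of the 12628 vehicle H3K4me2 peaks that scored at least as high, 3.87% had none. The highest-scoring and widest vehicle peak, from 106935108 to 106937305 (2198 bp, score 468.07), lay outside H3K4me3 and held S2101 peaks of 287 bp (106936093 to 106936379) and 435 bp (106936561 to 106936995), which covered 32.8% of it.

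In counts, 2 of the 5 vehicle H3K4me2 peaks had no S2101 counterpart, against 25.8% of the vehicle list, and none of the 5 S2101 peaks lacked a vehicle counterpart, against 3.94%. Counted by H3K4me3 of the same treatment, 2 of 5 vehicle H3K4me2 peaks lay outside it, against 28.2% of the list, and 2 of 5 S2101 peaks, against 10.5%. With such small counts these shares cannot be set apart from the lists. The covered length, split by H3K4me3, rests on as few peaks. The 3 vehicle peaks over H3K4me3 held 5034 bp, of which 22.4% was covered with S2101, compared with 51.6% for the 15407 vehicle H3K4me2 peaks over H3K4me3 in the whole list. The 2 peaks outside H3K4me3 held 4346 bp, of which 16.6% was covered, compared with 16.4% for the 6040 peaks of that kind. Each peak was also set beside the vehicle H3K4me2 peaks that scored at least as high. Of these, 13.3%, 15.7% and 10.0% were covered to the same extent or less for the 3 peaks over H3K4me3. For the 2 outside it the shares were 3.87% and 12.5%. The peaks set beside them were not split by H3K4me3. In the whole list 15407 vehicle H3K4me2 peaks lay over H3K4me3 and 6040 outside it. This measure therefore does not compare the 2 outside peaks with others of their kind. The ratio of 0.197 for the window was matched or undercut by 15.9% of the 6771 genome tiles of its length that held vehicle H3K4me2, and their median ratio was 0.454.

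Base by base, the H3K4me3 domain at Myf5 and Myf6 was listed largely without H3K4me2 under S2101. With vehicle, 4246 bp carried H3K4me2 and H3K4me3 together and 547 bp H3K4me3 alone. With S2101, 1130 bp carried both and 4043 bp H3K4me3 alone. Of the 4246 bp, 1101 bp were again listed with both marks under S2101, 3038 bp with H3K4me3 alone and 107 bp with neither. Of the 4785 bp with H3K4me2 alone in vehicle, 4043 bp held no mark with S2101 and 683 bp were again H3K4me2 alone. H3K4me2 thus covered 88.6% of the H3K4me3 length of the window with vehicle, near the 92.1% of the whole list, and 21.8% with S2101, compared with 54.5%. In the Myod1 and Myog windows it covered none in either treatment.

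H3K4me1 in the Myf5 and Myf6 window lay entirely on the high-coordinate side of the main H3K4me3 peak, in a near and a far group. Of the 7 vehicle peaks 1 had an S2101 counterpart (14.3%, 95% Wilson interval 2.57 to 51.3%, for counting error only), against 33.0% of the whole list. The near group held peaks at 106936957 to 106937650 (score 175.05), 106940058 to 106940597 (score 149.04) and 106953285 to 106954056 (772 bp, score 306.0), between 12.8 and 29.1 kb from the main H3K4me3 peak. The last had the highest H3K4me1 score in the window, and 31.6% of the 9374 vehicle peaks that score as high or higher had no S2101 counterpart either. The far group, 127 to 141 kb away, held the widest peak, at 107051670 to 107052569 (900 bp, score 257.23), and peaks at 107061064 to 107061650, 107064033 to 107064694 and 107064841 to 107065349. The last of these, with the lowest vehicle score of the window (114.82), was the one found again, as an S2101 peak of 369 bp (107064892 to 107065260, score 142.13) that lay wholly inside it. The ratio of covered H3K4me1, 0.0791, was matched or undercut by 32.0% of the 6140 tiles of this length with vehicle H3K4me1, whose median was 0.248.

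**Figure D5:**
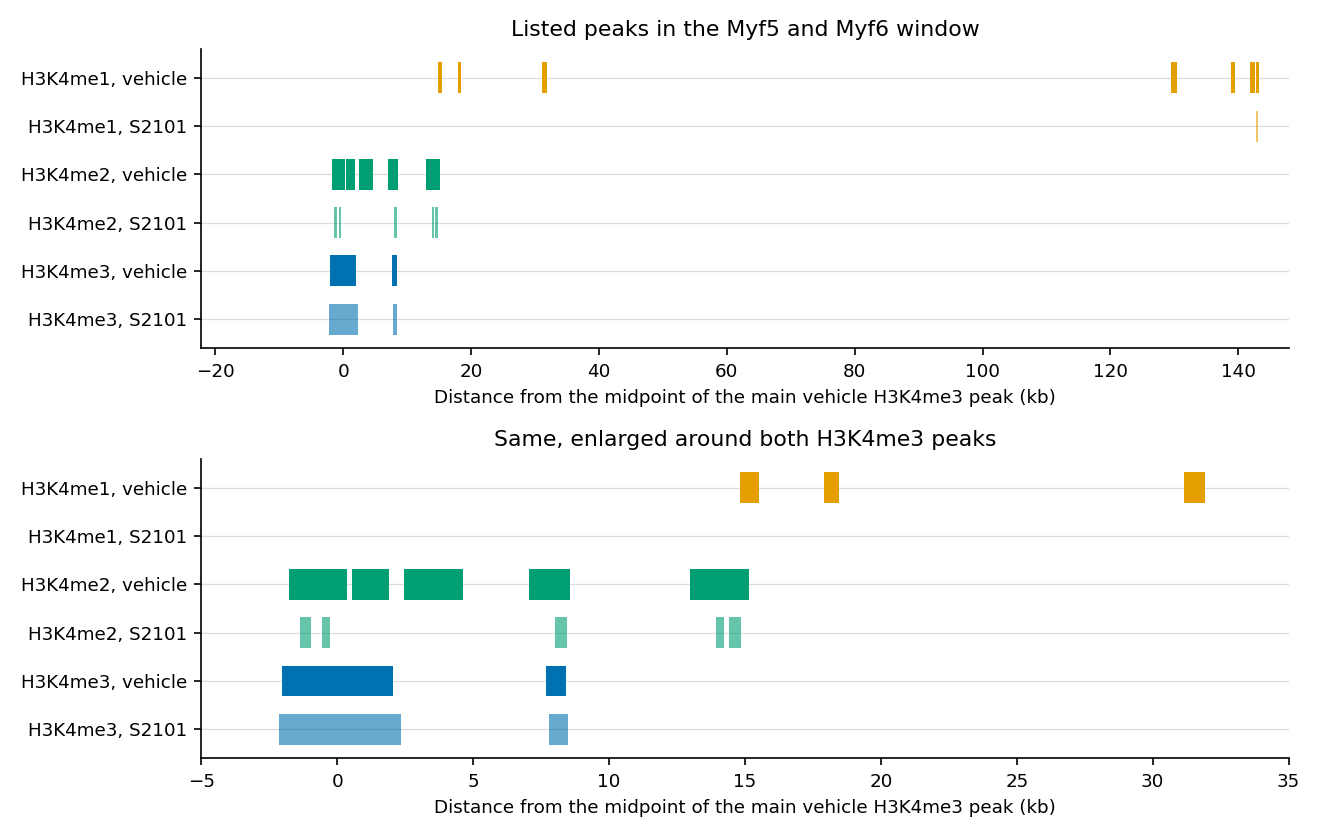
Peaks listed in the Myf5 and Myf6 window (upper panel) and an enlargement around both H3K4me3 peaks (lower panel), drawn to scale as bars in 6 rows, 1 per mark and treatment, against the distance in kb from the midpoint of the main vehicle H3K4me3 peak (x axis). The 5 wide vehicle H3K4me2 peaks face 5 narrow S2101 peaks, and the S2101 H3K4me1 row holds 1 peak at the far right.

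Across the 3 windows, H3K4me1 seldom overlapped the other marks, and most H3K4me1 peaks of the whole lists also lay outside each of them. None of the 18 vehicle and 8 S2101 H3K4me1 peaks overlapped H3K4me3 of either treatment, as was true of 83.8% and 91.0% of the lists. In the vehicle list 17 of 18 overlapped no H3K4me2 (69.6% of the list), and the exception was the peak at 106936957 to 106937650 at Myf5 and Myf6, which shared 349 bp with H3K4me2. In the S2101 list 8 of 8 overlapped none (89.6% of the list). H3K4me2 was listed in the Myf5 and Myf6 window only, which held 7 vehicle and 1 S2101 H3K4me1 peaks. At Myod1 and Myog no such overlap was possible. No base of any window carried H3K4me1 and H3K4me3 together, while over the whole lists H3K4me1 covered 9.00% of the vehicle and 1.98% of the S2101 H3K4me3 length. Of the 18 vehicle H3K4me1 peaks, 13 had no S2101 counterpart, against 67.0% of the list, so 27.8% were found (95% Wilson interval 12.5 to 50.9%, for counting error only). Of the 8 S2101 peaks, 3 had no vehicle counterpart, against 27.5% of the list. Both counts were near the background. All 5 H3K4me3 peaks of each list were found in the other treatment, where 1.30% of vehicle and 8.43% of S2101 peaks were not. Of the one-to-one pairs, S2101 gave the wider peak in 2 of 5 H3K4me1 pairs (12.3% of the list's pairs), which were 1 at Myod1 and 1 at Myog. The Myod1 pair (356 bp with vehicle, 374 bp with S2101) shared 191 bp, and the Myog pair met over 10 bp only. In the 1 such H3K4me2 pair the S2101 peak was the narrower (wider in 0.422% of the list's pairs).

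The windows were set beside all genome tiles of their length, most of which held no peak of a given mark. Any vehicle H3K4me1 was found in 21.9% of tiles for Myod1, 20.5% for Myog and 39.6% for Myf5 and Myf6. Any vehicle H3K4me3 was found in 17.4%, 16.0% and 38.6%. At least as much vehicle H3K4me1 was found in 4.36% of tiles for Myod1, 4.22% for Myog and 11.4% for the longer Myf5 and Myf6 window. With S2101 these shares were 4.77%, 2.71% and 22.9%. For H3K4me3 they were 3.92%, 9.97% and 11.2% with vehicle and 3.04%, 7.55% and 11.3% with S2101. Most of the tiles with any vehicle H3K4me3 thus held at least as much as the Myog window (9.97% of tiles, out of 16.0%). For Myf5 and Myf6 the share of tiles with at least as much was thus larger with S2101 for H3K4me1, as it was for H3K4me2, at 5.68% with vehicle and 19.9% with S2101. The ratio of H3K4me1 at Myog, 0.528, was reached or exceeded by 18.0% of tiles with vehicle H3K4me1, a rank that holds for the narrow window only, since the ratio was 0.273 in the widened one. The ratio at Myod1 was reached or exceeded by 36.3%. These shares describe the tiles and are not tests.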

How the data were processed

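ChIP-seq peak lists of 6 samples were used, 1 per mark and treatment, of the 12 samples of the series. The 4 inputs and 2 H3 samples were not analysed here. MACS in Galaxy called the peaks, per the file headers, and each deposited list belongs to 1 library. The score deposited by the authors is the caller's value per peak, and its definition is not given in the sources used here. In the H3K4me3 lists 56.5% (vehicle) and 59.8% (S2101) of scores stand at 3100 or more and rank no further. Bowtie2, deepTools and the build mm9 come from the submitters' processing notes. Settings, the control used and the reads per library were not given in the sources used here, so depth is unknown and values were not scaled for it.

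Windows were taken from the stated rule, and covered bases were counted within them, 1-based. Overlap meant at least 1 bp. Pairs are peaks that overlap exactly 1 peak of each other's list. Tiles of each window's length, without overlap, ran from the start of each chromosome to its last peak. Peaks are named if they are H3K4me3 peaks or, per list and window, the highest-scoring, the widest or the highest-scoring without a counterpart, and others were named after their values were seen. The interval functions were checked on simulated lists against bedtools 2.31.1. Alternatives were a score minimum of 200, lists cut to equal length, whole peaks, windows widened by 50 kb and 50% coverage of a peak. The members, windows and comparisons were chosen with earlier results of these data known, and the comparisons with higher-scoring peaks, pairs and tile ratios were added after the files were read. Python 3.11.15, numpy 2.4.6, pandas 2.3.3, statsmodels 0.14.6 and matplotlib 3.10.9 were used.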

Additional observations from a re-analysis of the deposited data

How the results depend on the processing

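With a minimum score of 200, no S2101 peak of H3K4me1 or H3K4me2 was left in the windows, so the ratio of covered length was 0 for H3K4me1 at Myod1 and at Myf5 and Myf6 and for H3K4me2 at Myf5 and Myf6, and the shares of vehicle peaks found were 0% for H3K4me1 (0 of 4) and 0% for H3K4me2 (0 of 4). At Myog no vehicle H3K4me1 peak reaches 200 or is left in the list of equal length, so neither setting gives a ratio there. The S2101 list is the shorter one and is kept whole. With lists of equal length, 1496 bp of S2101 H3K4me1 thus stood at Myog against no vehicle base, the reverse of the reported order. With lists of equal length the H3K4me1 ratio was 0.436 at Myod1 and 0.221 at Myf5 and Myf6, and no whole-list ratio was computed. With windows widened by 50 kb the H3K4me1 ratio at Myog was 0.273, so its 0.528 holds for the narrow window only. With at least 50% of the vehicle peak covered, 11.1% of H3K4me1 peaks (2 of 18) and 0% of H3K4me2 peaks (0 of 5) were found. Whole-list shares were not computed with this coverage or with the score minimum, so a difference from the background was not tested. Vehicle H3K4me2 peaks scoring at least as high as each of the 5 had median coverages of 49.5 to 55.6%. Scores rank peaks within a list only, so a minimum of 200 need not be equally strict in both treatments. The S2101 lists had the lower median scores (H3K4me1 142 against 182, H3K4me2 265 against 486). No ratio that could be formed crossed 1 under these settings, but the reversed order at Myog with lists of equal length gives no ratio. All H3K4me3 results stayed within 1.5 times of their reported value. H3K4me2 gave no ratio at Myod1 and Myog, and in the widened windows it covered 792 bp and 0 bp at Myod1 and 6627 bp and 2251 bp at Myog (vehicle and S2101). No paired analysis was possible because each mark and treatment has 1 library. Depth limits all absences: a place without a listed peak may carry a mark below the caller's threshold.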
